A study of Mus musculus with 2 samples.

Results

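C1q-positive macrophages were cells with abundant transcripts for the 3 chains of complement component C1q, found in a single-cell RNA sequencing experiment on innate lymphoid cells of the mouse small intestine. A cell barcode was taken as a member when it had at least 500 genes detected, at most 10% of its UMIs in mitochondrial genes, at least 10 UMIs of C1qa, C1qb and C1qc together, and under 20 UMIs of Jchain, an immunoglobulin chain of plasma cells. A UMI is a molecular barcode that counts 1 captured RNA molecule. Of 7115 barcodes, 6736 passed the first pair of limits, and 190 of those were members, 134 in the library labelled TTP-KO and 56 in the library labelled WT. C1q counts chose these cells, so C1q levels below are a description and nothing is tested with them.

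Wild-type C57BL/6 mice were compared with Zfp36-/- mice on the same background, which lack tristetraprolin (TTP). Live lamina propria cells positive for CD45, CD90.2 and CD127 and negative for lineage markers, CD3 and TCRβ were taken by cell sorting. Each genotype contributed 1 library, made with 3′ v2 chemistry from a pool of 4 mice. Neither the age nor the sex of the mice is given in the labels. With 1 library per genotype there is no replicate, so every difference below has no replicate check, and every 95% interval covers counting error only. Mice cannot be told apart within a pool.

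Macrophages of the intestinal lamina propria take up microbes and dying cells, digest them in lysosomes and secrete chemokines, complement proteins and matrix proteases. Many of them are renewed from blood monocytes that enter the tissue with the receptor Ccr2 and then raise Csf1r, C1q genes and MHC class II. C1q is the recognition part of the classical complement pathway, made of chains encoded by C1qa, C1qb and C1qc. Tristetraprolin, the product of Zfp36, binds AU-rich elements in messenger RNAs, many of them for cytokines, and promotes their decay.

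The 3 genes that define the cells lie side by side on the minus strand of mouse chromosome 4 in GENCODE vM21 (build GRCm38, mm10). C1qb occupies chr4:136880129-136886187, C1qc chr4:136889804-136893065 and C1qa chr4:136895917-136898803, so the cluster spans 18675 bases with gaps of 3616 and 2851 bases. Their levels went together from cell to cell: among the 134 TTP-KO members, Spearman's rho of the level per cell was 0.82 for C1qa with C1qb, 0.84 for C1qa with C1qc and 0.75 for C1qb with C1qc, over cells of 1 library that were chosen by the sum of these genes. The start-site windows of C1qb and C1qc are printed here because these genes are part of the rule. They run from 250 bases before to 50 bases after each start (RefSeq, GRCm38.p6, minus strand, 5′ to 3′). C1qb is chr4:136886151-136886450 and C1qc is chr4:136892865-136893164. Capitals mark a match to the PU.1 motif on its reverse strand, as ACTTCCTC.
C1qb: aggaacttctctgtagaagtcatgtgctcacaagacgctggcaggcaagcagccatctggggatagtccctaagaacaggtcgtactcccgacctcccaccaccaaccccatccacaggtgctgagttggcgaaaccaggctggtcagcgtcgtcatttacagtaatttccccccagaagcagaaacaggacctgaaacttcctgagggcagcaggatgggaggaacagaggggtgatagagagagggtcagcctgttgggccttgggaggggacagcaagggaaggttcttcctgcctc
C1qc: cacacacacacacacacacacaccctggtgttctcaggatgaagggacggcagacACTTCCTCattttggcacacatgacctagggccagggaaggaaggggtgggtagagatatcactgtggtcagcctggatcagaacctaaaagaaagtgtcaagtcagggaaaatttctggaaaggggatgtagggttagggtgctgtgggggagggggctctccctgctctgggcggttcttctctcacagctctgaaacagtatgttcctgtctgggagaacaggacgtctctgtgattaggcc
Both strands were searched for GAGGAAGT (PU.1, the myeloid factor encoded by Spi1), TGCTGAC (MAF factors) and TGACTCA (AP-1), and the 1 match found overlapped no other. The C1qc window held 1 match, a PU.1 match that begins 195 bases before the RefSeq start of that window. This RefSeq start lies inside the GENCODE span of C1qc given above, so the match is nearer to the GENCODE start. The C1qb window and the 3 Apoe windows held none of the 3 motifs. Of 32851 promoter windows of this length, 3.2% held the PU.1 motif, 4.67% the MAF motif and 5.2% the AP-1 motif. A match describes letters in the window and not binding.

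Members made up 4.01% of the kept TTP-KO cells (exact 95% interval 3.37 to 4.74%) and 1.65% of the kept WT cells (1.25 to 2.14%). Among kept cells with under 3 UMIs of the 8 lymphoid genes named below, the shares were 8.52% (6.1 to 11.5%) and 8.57% (4.88 to 13.7%). These shares are of cells that passed a sort for CD90.2 and CD127, surface proteins that macrophages are not known for, so they are not shares of the tissue. Median total UMIs were 15204 per TTP-KO member (1757 to 69436) and 6635.5 per WT member (1581 to 24212). Median C1q UMIs were 87 in the TTP-KO library and 44.5 in the WT library, against the limit of 10. Just below that limit, 19 cells of each library held 5 to 9 C1q UMIs, with Csf1r in 10 and 8 of them and Apoe in 18 and 18. Just above it, 17 TTP-KO and 14 WT cells held 10 to 19, with Csf1r in 13 and 11 and Apoe in 15 and 14. Csf1r was thus detected in a larger share of cells just above the limit in both libraries, and Apoe in most cells on both sides. Jchain left out 3 TTP-KO cells, at 2005 to 4516 UMIs, and the highest member held 4. The libraries shared 2 barcode sequences, none of them a member.

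Most members also held lymphoid RNA. At least 3 UMIs of the 8 genes Cd3e, Cd3d, Cd3g, Trac, Trbc1, Trbc2, Thy1 and Il7r were present in 96 of 134 TTP-KO members (71.6%, 63.2 to 79.1%) and 41 of 56 WT members (73.2%, 59.7 to 84.2%). The same count was reached by 7.6% and 19.8% of plasma cells (at least 200 Jchain UMIs), at a median depth of 31633 and 39543 UMIs. It was reached by 36.3% and 28.6% of the dendritic cells defined below, at a median depth of 24514.5 and 21977 UMIs. In the TTP-KO library the lymphoid-positive members were deeper (median 19618.5 UMIs) than the other 38 (median 11845), and they held 83.3% of all member UMIs. Y-linked UMIs occurred in 16% of kept TTP-KO cells and 0.118% of kept WT cells, so the pools differ in sex-linked RNA. Xist, a transcript of female cells, and Y-linked UMIs occurred together in 36 of the 96 lymphoid-positive TTP-KO members, in 0 of the other 38 and in 1.39% of other kept TTP-KO cells. The 36 held 44.8% of TTP-KO member UMIs. The part of barcodes with 2 cells in the results was not tested, and many results below are therefore also given for the members with under 3 lymphoid UMIs, 38 in the TTP-KO library and 15 in the WT library, called lymphoid-low.

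**Figure D1:**
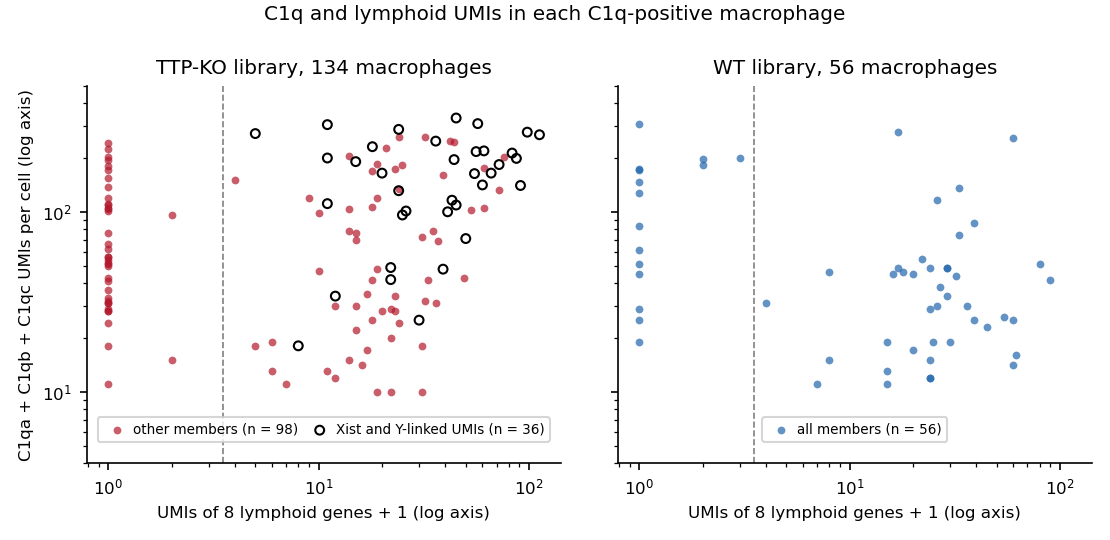
C1q UMIs (y axis) against the UMIs of 8 lymphoid genes plus 1 (x axis) in each member, both on log axes, TTP-KO left and WT right. Members left of the dashed line have under 3 lymphoid UMIs, and the 36 open circles, all right of the line, hold both Xist and Y-linked UMIs.

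The macrophage label was checked on 15 macrophage markers other than the C1q genes of the rule. Their summed level was 11913 CPM (UMIs of a gene scaled to 1000000 UMIs of the group) in TTP-KO members and 18828 CPM in their lymphoid-low members, against 2346 CPM in the dendritic cells defined below and 363.7 CPM in other kept cells. All 15 markers had UMIs, including Csf1r, the receptor for macrophage growth factors, and Adgre1. WT members summed to 22895 CPM, against 8943 CPM in WT dendritic cells and 138.3 CPM in other kept WT cells. Without Lyz2 the WT sums were 18080 CPM in members and 1026 CPM in dendritic cells. Outside the genes that define lymphoid-low, 12 innate lymphoid genes summed to 2249 CPM over all TTP-KO members and 92.7 CPM in the lymphoid-low ones, which held 0 UMIs of Gata3, Il2ra and Il23r. Monocyte markers summed to 1998 CPM in TTP-KO members and 4405 CPM in the lymphoid-low ones, against 2428 CPM in the dendritic cells of that library. In the WT library they summed to 648.5 CPM in members and 2305.5 CPM in dendritic cells. Over all TTP-KO and WT members, neutrophil genes summed to 120.8 and 216.9 CPM with S100a8 and S100a9 at 0, B cell genes to 45.7 and 117.9 CPM, plasma cell genes to 581.5 and 1033.8 CPM, and epithelial genes to 47.3 and 202.1 CPM. Eosinophil genes (8.98 and 0 CPM), mast cell genes (12.2 and 4.21 CPM) and stromal genes (104.5 and 84.2 CPM) were low. In the WT library 1 member with 34655.5 CPM of epithelial genes held most of them. Of 16 perivascular or long-lived resident genes, 4 passed the limit of 50 UMIs used below (Mrc1, Pf4, Cd4 and Stab1), and all 4 were higher than in the dendritic cells of both libraries. Others were near 0: over all TTP-KO and WT members Lyve1 had 1 and 0 UMIs, Folr2 1 and 0, Cd163 5 and 1, and Timd4 3 and 13. With lymphoid-low cells on both sides, 0 of the 16 genes passed the limit in either library, and Cd4 is also a T cell marker.

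To describe the members against another antigen-presenting cell of the same libraries, they were set beside dendritic cells, taken as cells with at least 2 Plet1 UMIs, at least 50 UMIs of H2-Aa, H2-Ab1, H2-Eb1 and Cd74, under 10 C1q and under 20 Jchain UMIs. There were 182 in the TTP-KO library and 21 in the WT library. UMIs were summed over each group and expressed as CPM, and genes with at least 50 UMIs over both groups were compared. In the TTP-KO library 8739 genes met this limit. The macrophage level exceeded the dendritic cell level by 2-fold or more for 1339 of them (15.3%) and fell short of it by as much for 495 (5.66%), with a median log2 ratio of 0.18 over all tested genes. Centred on that median, the counts were 1076 and 666. With lymphoid-low cells on both sides the shares were 9.95% higher and 13.7% lower of 6221 genes, with a median log2 ratio of -0.11. In the WT library they were 15% and 8.62% of 2994 genes. Because both groups were chosen on their RNA, these counts describe the groups and are no test. Groups of genes are described below by the number of measured members past 2-fold, to be read against these shares.

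The defining genes set the scale. C1qa was at 2011 CPM in TTP-KO macrophages and 6.12 CPM in dendritic cells, C1qb at 2353 and 3.63, and C1qc at 1432 and 2.72, a separation that the rule fixes. Apoe, the lipid carrier of macrophages, was not in the rule and was 144-fold higher (95% interval 122 to 173), at 4354 against 30.2 CPM. Csf1r was 18.5-fold higher (15.7 to 21.9), at 679 against 36.7 CPM. In the WT library Apoe was at 13761 against 224 CPM and Csf1r at 783 against 75.3 CPM, so both were higher in macrophages of each library.

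Of 11 measured genes for complement proteins and receptors outside C1q, 6 were at least 2-fold higher and 0 lower in TTP-KO macrophages. In the WT library the counts were 2 and 0 of 7, with a median log2 ratio of -0.17. C3, the central complement protein, was at 75.5 CPM against 0.453 CPM. The receptors for its anaphylatoxin and for that of C5 were also higher: C3ar1 was at 102 against 0.68 CPM and C5ar1 at 87.7 against 0.453 CPM. Cfb, of the alternative pathway, was at 34.3 against 0.227 CPM. Properdin, encoded by Cfp, was near equal at 126 and 144 CPM. In lymphoid-low cells 3 of 8 measured genes were higher and 0 lower.

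Receptors for apoptotic cells and immune complexes formed a second group. Of 22 measured efferocytosis and scavenger genes, 11 were higher and 5 lower. Mertk and Axl, kinases that bind dying cells through bridging proteins, were at 43.3 against 0.453 CPM and 92.2 against 0.453 CPM. Itgb5, an integrin chain with the same task, was 143-fold higher (60.6 to 442), and the scavenger receptor Msr1 42.4-fold higher (24.4 to 80.5). Mrc1, the mannose receptor, was at 94.7 against 0.227 CPM. The lower members included Cd209a (11.4-fold), Cd209b, which had 0 UMIs in TTP-KO macrophages and 13.4 CPM in dendritic cells, Lgals3 (3.97-fold) and Cd36 (3.2-fold). Lymphoid-low cells had 6 higher and 3 lower of 13.

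Of 21 measured Fc receptors and signalling partners, 8 were higher and 2 lower, and of 20 measured in lymphoid-low cells 13 were higher and 2 lower. Fcgr1, the high-affinity IgG receptor, was at 138 CPM against 0.227 CPM, the latter 1 UMI. Fcgr4 was 176-fold higher (80.1 to 480), Fcgr3 4.51-fold (3.92 to 5.21) and the shared signalling chain Fcer1g 8.52-fold (7.91 to 9.18). Tyrobp, another signalling adaptor, was at 1145 against 1358 CPM. Clec4a3, a lectin receptor gene, was 227-fold higher (77.2 to 1108).

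Of 31 measured lysosome and cathepsin genes 13 were higher and 1 lower, and in lymphoid-low cells 15 higher and 1 lower of 29. Lgmn, an asparaginyl endopeptidase, was 9.92-fold higher (8.87 to 11.1), Npc2, a cholesterol carrier, 7.3-fold (6.58 to 8.12), Ctsd 7.2-fold (5.72 to 9.15), Ctsl 4.04-fold and Ctsb 3.93-fold. The exception was Cst3, an inhibitor of cathepsins, 2.95-fold lower (2.84 to 3.06). Of 19 lipid genes 10 were higher and 1 lower, and of 15 in lymphoid-low cells 8 and 0. Besides Apoe they included Nr1h3, the sterol-sensing receptor LXRα, at 60.8 against 0.453 CPM, and its target Abca1, a cholesterol exporter, at 50.6 against 0.227 CPM. Of 12 iron and haem genes 5 were higher and 1 lower, with a median log2 ratio of 0.33, and of 10 in lymphoid-low cells 4 and 1, with 0.09. Slc11a1, a metal transporter of phagosomes, had 196 UMIs in macrophages and 0 in dendritic cells, at least 118-fold higher against a floor of 3 UMIs over the group. The haem oxygenase Hmox1 was 7.2-fold higher (4.25 to 12.8).

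**Figure D2:**
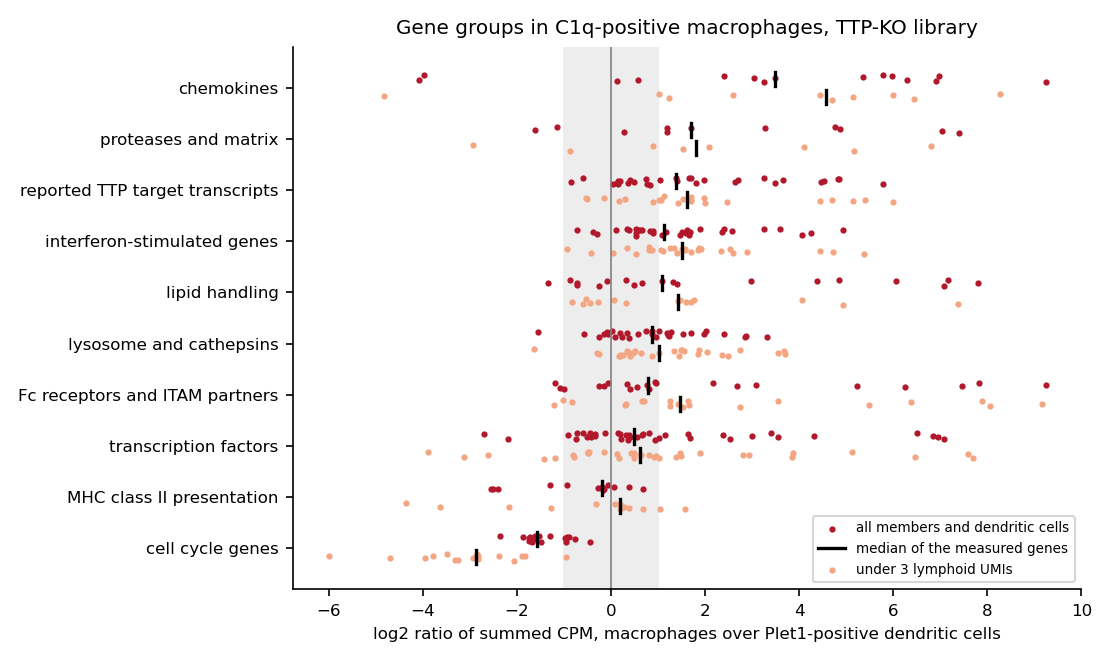
Log2 ratio of summed CPM, macrophages over Plet1-positive dendritic cells of the TTP-KO library (x axis), for each measured gene (1 point) of 10 gene groups (y axis), over all members (dark) and over lymphoid-low cells (light), with bars at the medians and the range under 2-fold shaded. Of the 10 groups drawn, chemokines have the highest median over all members, 3.48, and cell cycle genes the lowest, -1.57.

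Most chemokines were higher in the macrophages. Of 15 measured chemokines 11 were higher in TTP-KO macrophages and 2 lower, with a median log2 ratio of 3.48, and in lymphoid-low cells 9 were higher and 1 lower of 10. Ccl24, an attractant of eosinophils encoded at chr5:135569937-135573049, was at 273 CPM in TTP-KO macrophages, 0.453 in TTP-KO dendritic cells, 52.6 in WT macrophages and 0 in WT dendritic cells. Ccl8 had 202 UMIs in TTP-KO macrophages and 0 in dendritic cells, at least 121-fold higher. The inflammatory chemokines Ccl3 and Ccl4 were 54.9-fold (31.1 to 107) and 11.2-fold higher (9.13 to 13.8), and the interferon-induced Cxcl10 9.53-fold (7.96 to 11.5). Cxcl2, an attractant of neutrophils, was near equal over all members, at 593 and 547 CPM, and 2.01-fold higher (1.79 to 2.26) in lymphoid-low cells. The 2 lower chemokines were Ccl17 and Ccl22, ligands of Ccr4, at 8.98 against 141 CPM and 2.45 against 41.5 CPM.

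Of 21 measured cytokines and growth factors 13 were higher and 1 lower, but only 7 passed the count limit in lymphoid-low cells, with 4 higher and 1 lower. Il1b was at 2753 CPM in TTP-KO macrophages and 2139 CPM in dendritic cells, 1.29-fold higher (1.25 to 1.33), and 3.25-fold higher (3.1 to 3.4) in lymphoid-low cells. Its antagonist Il1rn was at 130 against 20.9 CPM, 6.22-fold higher (4.92 to 7.94), and 35.4-fold higher (22.6 to 57.8) in lymphoid-low cells. Tnf was at 35.1 against 1.59 CPM. The lower gene was Il22ra2, the soluble IL-22 binding protein, at 18.4 against 151 CPM, with 0 UMIs in lymphoid-low members of either library. Il10 was found in 7 TTP-KO members. Of 26 measured growth factor and cytokine receptors 11 were higher and 3 lower: besides Csf1r, the TGF-β receptor Tgfbr1 was 5.28-fold (4.16 to 6.76) and Il10ra 2.93-fold higher (2.43 to 3.53), while Flt3, the growth factor receptor of dendritic cells, was 7.4-fold lower (5.43 to 10.3) and Csf2rb 2.52-fold lower (2.34 to 2.71).

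Receptors for migration also differed, with 10 of 18 measured chemokine receptor and adhesion genes higher and 2 lower, and 7 and 3 of 14 in lymphoid-low cells. Ccr2, encoded at chr9:124101950-124113557, was at 437 CPM in TTP-KO macrophages and 3.17 CPM in dendritic cells, 138-fold higher (81.7 to 253). Cx3cr1, the fractalkine receptor, was 37.7-fold higher (23.2 to 65.4) and the tetraspanin Cd81 35.5-fold (26.4 to 48.9). Itga9, an integrin chain outside that list, had 192 UMIs against 0. Itgae, the αE integrin chain CD103, was 8-fold lower over all members (6.74 to 9.57) and had 0 UMIs in lymphoid-low members, at least 61.9-fold lower.

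Among 38 measured transcription factors 14 were higher and 2 lower in TTP-KO macrophages, and among 35 in lymphoid-low cells 13 and 5. Maf, a regulator of macrophage identity, was 19.8-fold higher (15.3 to 26.2). Zeb2 was 8.01-fold higher (7.04 to 9.14), Irf8 5.2-fold (4.48 to 6.04) and the Notch target Hes1 10.6-fold (8.79 to 12.8). In lymphoid-low cells the ratios of Maf and Hes1 were 208-fold and 192-fold, with Maf at 0.761 and Hes1 at 1.14 CPM in lymphoid-low dendritic cells. Spi1, which encodes PU.1, was 1.88-fold lower (1.74 to 2.02), and Irf4, a factor of type 2 conventional dendritic cells, 6.49-fold lower (4.41 to 9.92). Of 11 measured proteases and matrix genes 8 were higher and 2 lower, and of 8 in lymphoid-low cells 5 and 1. The collagenase Mmp13 had 218 UMIs against 0, at least 131-fold higher, and the matrix protein Tgfbi, outside that list, was 98.3-fold higher (70.7 to 141). Adamdec1, a metalloprotease of gut macrophages, was 9.65-fold higher (7.71 to 12.2).

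MHC class II was shared. Cd74, the invariant chain, was at 17523 CPM in TTP-KO macrophages and 20072 CPM in dendritic cells, and H2-Aa at 6379 and 6684 CPM, though a class II minimum was part of the dendritic cell definition. In lymphoid-low cells both were above the dendritic cells instead, with log2 ratios of 0.28 for Cd74 and 0.39 for H2-Aa. Of 13 measured class II genes none passed 2-fold upwards and 4 passed it downwards, and in lymphoid-low cells 2 (Cd40 and H2-DMb1) and 4. H2-DMb2 and H2-Oa, which edit peptide loading, were 5.64-fold (4.76 to 6.74) and 5.32-fold lower (4.33 to 6.59).

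Genes of the dendritic cells were low in the macrophages, most clearly where lymphoid RNA was low. Of 17 measured dendritic cell markers 11 were lower and 0 higher. Plet1, which defined the dendritic cells, was at 93.9 CPM over all TTP-KO members but at 2.44 CPM, 1 UMI, over the 38 lymphoid-low ones. Its 230 UMIs came from 14 members with a median of 39898.5 total UMIs, against 14590 in members without it. Epcam (33.5 against 320 CPM) and Tnni2 (28.2 against 261 CPM) behaved the same way, with 0 and 1 UMI in lymphoid-low members. Gp2, a receptor for bacterial pili, was 218-fold lower (60.2 to 1806), and Slamf1 had 1 UMI in macrophages against 127 in dendritic cells. Haao, of tryptophan breakdown, had 0 UMIs against 58. Cell cycle genes were lower in the macrophages for 12 of 18 genes, and for 16 of 17 in lymphoid-low cells, with Top2a at 67.7 against 189 CPM. Of the Top2a UMIs in TTP-KO members, 46.4% came from 1 cell.

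In the WT library the dendritic cells were only 21, and fewer genes passed the count limit. Of 15 measured macrophage markers 13 were higher in WT macrophages and 0 lower, of 11 chemokines 10 and 0, of 14 efferocytosis genes 6 and 4, of 17 Fc receptor genes 6 and 2, and of 26 lysosomal genes 8 and 2. Fcer1g was at 1611 against 327 CPM and Lgmn at 1023 against 69.3 CPM. Ccr2 was at 122 against 3.96 CPM, with 36.2% of its WT macrophage UMIs in 1 cell. Plet1 was at 33.7 against 487 CPM, Epcam at 16.8 against 368 CPM and Cd209a at 8.42 against 446 CPM. Slamf1 differed in direction, with 9 UMIs in WT macrophages and 2 in WT dendritic cells, under the count limit. In lymphoid-low WT cells the macrophage markers were 12 and 0 of 14, chemokines 6 and 0 of 6, Fc receptor genes 7 and 0 of 14 and lysosomal genes 9 and 1 of 22, but efferocytosis genes 0 and 3 of 7. Cell cycle genes were lower for 9 of 9 in all WT members. Of 11 class II genes 0 were higher and 4 lower.

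**Figure D3:**
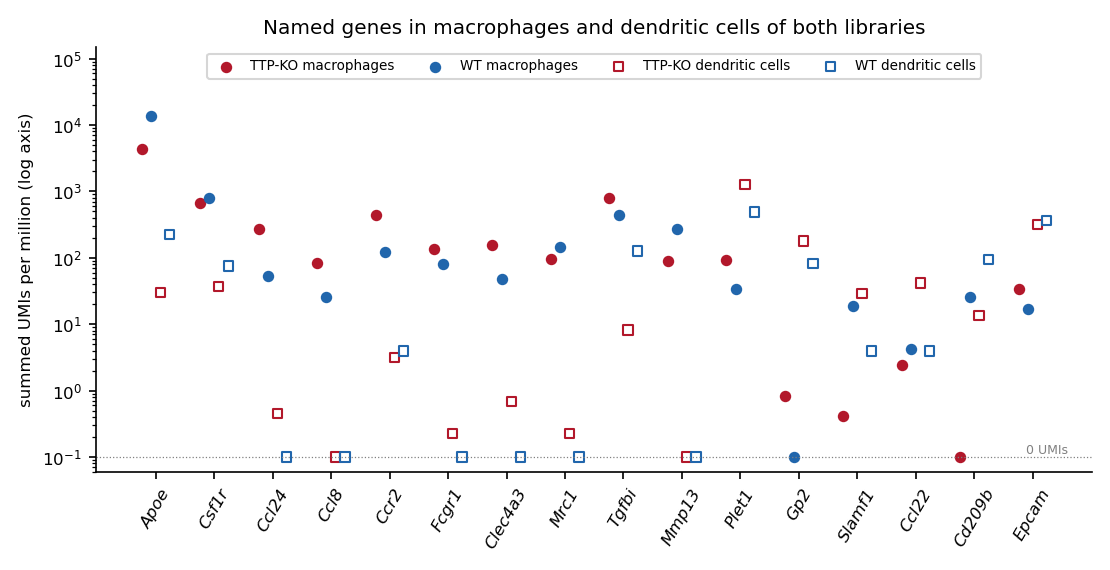
Summed CPM (y axis, log) of 16 genes (x axis) in macrophages (filled circles) and dendritic cells (open squares) of the TTP-KO (red) and WT (blue) libraries, with groups of 0 UMIs drawn on the dotted line. Apoe to Mmp13 are higher in macrophages of both libraries, with Ccl24, Ccl8, Fcgr1, Clec4a3, Mrc1 and Mmp13 at 0 in WT dendritic cells.

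Of 32 measured interferon-stimulated genes 17 were higher and 0 lower in TTP-KO macrophages, with a median log2 ratio of 1.13, and 19 of 27 were higher in lymphoid-low cells. Ifi204 was 30.4-fold higher (19.4 to 50.4) and Ms4a4c 12-fold (8.69 to 17.1), whereas Gbp2, a GTPase against intracellular microbes, was near equal at 251 and 233 CPM. Of 20 NF-κB feedback genes 6 were higher and 1 lower, and 14 and 0 in lymphoid-low cells. Nfkbia, the inhibitor of NF-κB, was 3.25-fold higher (3.02 to 3.5). Of 21 immediate-early genes 8 were higher and 1 lower, and in the WT library 3 and 2 of 18. The WT counts were 5 and 0 of 9 interferon-stimulated genes, and 11 and 0 of 15 NF-κB feedback genes. Of 30 measured transcripts reported as TTP targets 17 were higher and 0 lower in the TTP-KO library. Of 22 in lymphoid-low cells 16 were higher and 0 lower. In the WT library 9 of 20 were higher and 0 lower, and of 15 in lymphoid-low cells 11 and 0. Both cell types of the TTP-KO library came from Zfp36-/- mice. Among 22 measured genes for TTP relatives and decay factors in the TTP-KO library, 2 were higher and 0 lower. One was Zfp36l1, a relative of TTP, at 1099 against 133 CPM, 8.25-fold higher (7.54 to 9.03).

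Of 19 pattern recognition genes 7 were higher and 0 lower (5 and 1 of 14 in lymphoid-low cells), among them Cd14, a co-receptor for lipopolysaccharide, at 149 against 10.9 CPM. Of 14 alternative activation genes 6 were higher and 2 lower, with a median log2 ratio of 0.46, and of 10 in lymphoid-low cells 3 and 2, with -0.36. Of 13 antimicrobial and oxidant genes 4 were higher, among them Cybb, the NADPH oxidase chain, at 873 against 320 CPM, and 1 was lower. Of 11 heat-shock genes 4 were higher and 0 lower. Of 5 tight junction genes 2 were higher and 1 lower.

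The TTP-KO macrophages were not uniform. After thinning 133 of them to 2000 UMIs each, 450 genes had a mean of at least 0.5 UMIs, and the median variance over mean was 1.27, with 33 genes at 3 or more. The most variable were Gm42418 (43.7), a locus with ribosomal RNA sequence, and the nuclear RNA Malat1 (16.7), followed by Apoe (12.2), Lyz2 (11.4), Il1b (10.5), Cd74 (10.2), Plac8 (7.34), Fth1 (6.93), Cxcl10 (6.83) and Tmsb4x (6.42). Cxcl10 was found in 18.1% of the thinned cells, and 7 cells held 61.3% of its UMIs. In the 37 lymphoid-low cells that reached 2000 UMIs, Apoe had 22.2 and Plac8 7.93, so these genes varied there too.

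Ccr2 and Ccl24, both among the genes highest over dendritic cells, were largely in different TTP-KO members. Over all 134, 64 had Ccr2 without Ccl24, 31 Ccl24 without Ccr2, 20 both and 19 neither. Among the 38 lymphoid-low members the numbers were 22, 11, 5 and 0. In 1 random draw of 2000 UMIs per cell, 20 of 37 lymphoid-low members had Ccr2 without Ccl24, 9 the reverse, 2 both and 6 neither. Spearman's rho between the 2 genes was -0.49 over 134 members and -0.79 over the 38, as a description of cells in 1 library whose depth differs.

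This split was chosen after its values were seen, and the genes beside it are a description. In lymphoid-low TTP-KO members, those with Ccr2 alone had 3963 CPM of Plac8, a gene of monocytes that the dendritic cells also held, and those with Ccl24 alone had 0. Il1b was at 8353 against 2629 CPM, and Lyz2, lysozyme, at 9122 against 4309 CPM. Chil3 and Ly6c2, genes of classical monocytes, were at 173 and 67 CPM with Ccr2 alone and both at 0 with Ccl24 alone. The reverse held for Apoe (3769 against 14607 CPM), C1qa (2070 against 4912), Csf1r (874 against 1990), Cd81 (187 against 1205), Adamdec1 (91.7 against 1516) and Mmp13, which was at 0 against 657 CPM. Cd74 was similar, at 24225 and 27407 CPM, and so was H2-Aa, at 8896 and 9403. Median depth was 14858 UMIs with Ccr2 alone and 4601 with Ccl24 alone, and its part in the split and in the C1qa levels was not tested. Over all TTP-KO members, Plac8 was at 1883 CPM with Ccr2 alone and 744.5 CPM with Ccl24 alone. Among WT members 11 had Ccr2 alone, 8 Ccl24 alone, 1 both and 36 neither. In these WT members Apoe (14717 against 11033 CPM), C1qa (3404 against 2495) and Csf1r (945 against 663) were higher with Ccr2 alone, the other direction. Adamdec1 (350 and 351 CPM), Mmp13 (187 and 156) and Cd81 (1010 and 1170) were similar. Il1b (1539 against 233.9 CPM) and Lyz2 (5652 against 2495) kept the TTP-KO direction.

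**Figure D4:**
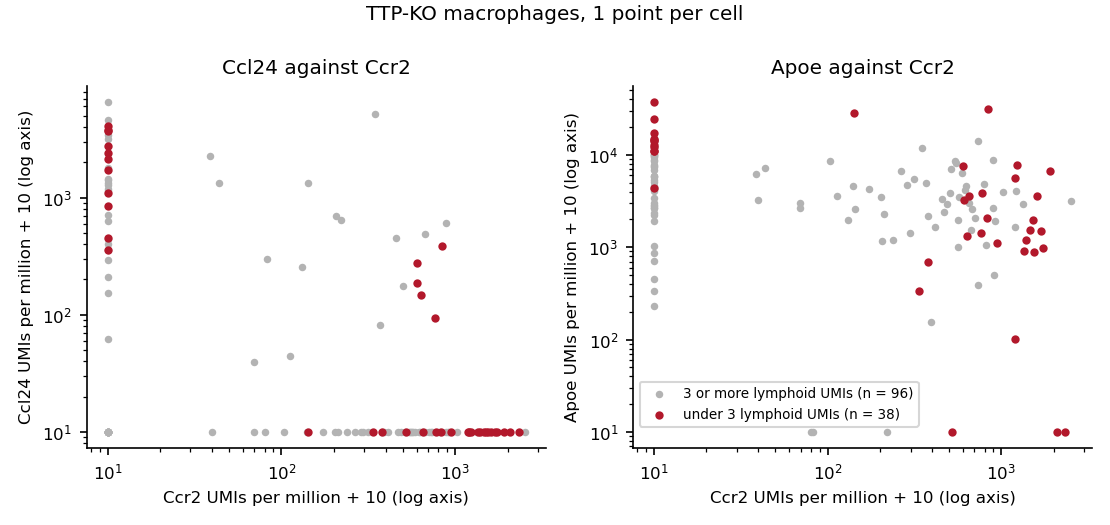
Ccl24 (left) and Apoe (right) against Ccr2 in each TTP-KO member, as CPM plus 10 on log axes, with the 38 lymphoid-low members in red and the other 96 in grey. On the left most cells lie along one axis or the other, and 20 of 134 hold both genes.

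Between the libraries, the question was which genes differed between macrophages of TTP-deficient and wild-type mice. Zfp36, at chr7:28376784-28380253, was still counted in TTP-KO macrophages, at 903 CPM against 1390 CPM in WT macrophages, and would be found in 70.4% and 73.6% of members after thinning to 2000 UMIs, averaged over all draws. The deleted part of the gene is not given in the sources used here, so a 3′ tag does not check the genotype. Of 6992 genes with at least 50 UMIs, 493 (7.05%) had a TTP-KO level of 2-fold or more that of WT members and 163 (2.33%) the reverse, with a median log2 ratio of 0.15. Centred on that median, the counts were 350 and 259. In lymphoid-low members 11.2% of 1657 genes were higher and 5.01% lower, with a median log2 ratio of 0.25. Genotype, mouse pool, sex makeup and depth cannot be told apart here. Ddx3y, a Y-linked gene, was at 42.9 CPM in TTP-KO members and 0 in WT members.

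Monocyte genes were higher in the TTP-KO members. Of 6 measured monocyte markers 5 were higher and 1 lower, and in lymphoid-low members 3 and 1 of 4. Ccr2 was at 437 against 122 CPM, 3.58-fold higher (2.75 to 4.75), and 3.9-fold (2.72 to 5.79) in lymphoid-low members. After thinning to 2000 UMIs and averaged over all draws, Ccr2 would be found in 40.5% of TTP-KO members and 12% of WT members, against 3.13% and 9.07% of other kept cells, and 0.338% of TTP-KO dendritic cells. The WT share was thus near that of other WT cells. In lymphoid-low members the shares were 61% of 37 cells and 13.1% of 13. Without thinning, 84 of 134 TTP-KO and 12 of 56 WT members held Ccr2. Plac8 was at 1348 against 177 CPM, 7.62-fold higher (6.14 to 9.58), and 31.2-fold (18.2 to 58.7) in lymphoid-low members. Chil3 had 127 UMIs in 22 TTP-KO members and 0 in WT members, at least 8.21-fold higher, and Ly6c2 67 and 0, at least 4.33-fold. The lower marker was Fn1, whose 128 WT UMIs all came from 1 cell.

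Of 17 measured macrophage markers 1, Mertk, was at least 2-fold higher in TTP-KO members and 4 lower (Apoe, Pf4, Cd63 and Ms4a7), and in lymphoid-low members 0 of 15 were higher and 5 lower. Apoe was at 4354 CPM in TTP-KO and 13761 CPM in WT members, 3.16-fold lower (3.07 to 3.26), and 3.67-fold lower (3.48 to 3.87) in lymphoid-low members. C1qa was 1.62-fold lower (1.53 to 1.72), C1qc 1.43-fold and C1qb 1.16-fold, and C1qa 2.16-fold lower in lymphoid-low members. These 3 genes chose the members by a raw limit of 10 UMIs, which is a higher CPM in a shallower cell. Median depth was 15204 UMIs in TTP-KO and 6635.5 UMIs in WT members, and its part in the C1q and Apoe ratios was not tested. With a C1q minimum of 5 UMIs the log2 ratio of C1qb was 0.02, in place of -0.22. Cd81 was 2.88-fold lower (2.57 to 3.21), Cd63 2.49-fold, Pf4 3.43-fold (2.58 to 4.53), Mmp13 3.01-fold (2.4 to 3.76) and Hpgds, a prostaglandin D synthase, 3.28-fold (2.52 to 4.26). Pla2g2d, a secreted phospholipase, was at 24.1 against 480 CPM, 19.9-fold lower (14.9 to 27), and 10.2-fold lower in lymphoid-low members, with 44.3% of its WT UMIs in 1 cell. Cx3cr1 was 1.7-fold lower and Mrc1 1.51-fold lower, and 3.15-fold and 2.6-fold in lymphoid-low members. Csf1r had a log2 ratio of -0.21 over all members, 0.01 with cells weighted equally and 0.04 without the Xist and Y-linked barcodes, so its direction was not settled. Class II presentation genes held 0 higher and 0 lower of 12.

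Interferon-stimulated genes were higher in TTP-KO members for 12 of 29 measured genes and lower for 0, with a median log2 ratio of 0.90, and for 10 of 17 in lymphoid-low members with a median of 1.08. Gbp2 was at 251 against 29.5 CPM, 8.5-fold higher (5.03 to 15.6). After thinning, averaged over all draws, Gbp2 would be found in 31% of TTP-KO and 6% of WT members, and in 18% and 11.9% of other kept cells. In dendritic cells the shares were 34.1% (TTP-KO) and 9.83% (WT), so the difference was not particular to macrophages. Ly6a was 3.42-fold higher (2.39 to 5.04) and Irgm1, a GTPase, 2.77-fold (1.61 to 5.16). Ifitm1, which was not in the list, was at 223 against 25.3 CPM, 8.84-fold higher (5.02 to 17.2). Ifi205 had 240 UMIs against 1, with 39.6% of them in 1 TTP-KO cell. Isg15 and Bst2 differed by 1.23-fold and 1.07-fold in the other direction, with intervals that included equality.

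Reported TTP targets differed in both directions. Of 31 measured, 8 were higher and 5 lower in TTP-KO members, with a median log2 ratio of -0.16. In lymphoid-low members 3 were higher and 5 lower of 21, with a median of 0.30 against 0.25 over all genes. The 8 higher over all members included Il22, a cytokine of innate lymphoid cells, with 2 UMIs in lymphoid-low TTP-KO members. Il1b was 2.11-fold higher (1.95 to 2.3), and 2.8-fold (2.5 to 3.15) in lymphoid-low members. Its antagonist Il1rn was 2.46-fold higher (1.64 to 3.87) and Ier3, an early response gene, 3.93-fold (2.42 to 6.83). Ccl3 was at 149 against 491 CPM, 3.29-fold lower (2.78 to 3.88), and Ccl4 at 279 against 1118 CPM, 4.01-fold lower (3.58 to 4.5), with 42.1% and 44.8% of their WT UMIs in 1 cell. Tnf was 1.86-fold lower (1.19 to 2.83) and Cxcl2 1.65-fold lower (1.49 to 1.84). Among 20 measured TTP relatives and decay factors 1 was higher and 0 lower, and Zfp36l1 had a log2 ratio of 0.17, and of -0.01 with cells weighted equally.

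Of 15 chemokines 2 were higher and 7 lower in TTP-KO members. The higher ones were Ccl24, at 273 against 52.6 CPM or 5.19-fold (3.49 to 8.09), and Ccl8, at 82.4 against 25.3 CPM or 3.26-fold (1.83 to 6.42). Ccl24 would be found in 26.6% of thinned TTP-KO members and 6.74% of WT members, and in 0.211% and 0.0392% of other kept cells, and 52% of its WT UMIs came from 1 cell. C3 had 185 UMIs in 55 TTP-KO members and 1 in WT members, a ratio of 35.9 (6.36 to 1424). Sirpb1c, a signal-regulatory receptor gene, was at 121 against 6.32 CPM, 19.2-fold higher (6.5 to 93.6), and 13-fold (4.35 to 64.1) in lymphoid-low members. Complement genes held 4 higher and 0 lower of 11. Fabp5, a fatty acid carrier, was 4.59-fold higher (2.74 to 8.28), with 32.7% of its TTP-KO UMIs in 1 cell, in a lipid group with 4 higher and 4 lower of 20. Heat-shock genes held 0 higher and 1 lower of 11, but 6 lower of 10 in lymphoid-low members, where Hspa1a was 7.45-fold lower (5.91 to 9.44).

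Several of the genes with the largest ratios had most of their UMIs in 1 barcode or were lymphoid genes. A WT member with 23488 UMIs held 1866 of the 1867 WT UMIs of Retnla, 424 of 579 of Lyz1, 67 of 71 of Ccl9 and 128 of 140 of Ccl6, and Ccl6 and Ccl9 were among the 7 lower chemokines. Another WT member with 2395 UMIs held 61 of 62 UMIs of Fabp2, an enterocyte gene. A WT member with 35 lymphoid UMIs held 45 of 56 UMIs of Gzmb, a cytotoxic granule gene. Trac, Cd3d, Cd3e, Cd3g and Cd28, T cell genes, were 16.4-fold to 42.1-fold lower in TTP-KO members, and 4 of these 5 are among the genes that define lymphoid-low. The T cell list summed to 410.5 CPM in TTP-KO and 1937 CPM in WT members. Hs3st1 had 221 UMIs against 2, with 0 in lymphoid-low members of either library. Of the 95 Pclaf UMIs in TTP-KO members, 42.1% came from 1 cell, with 0 in WT members, and cell cycle genes, 6 higher of 10 over all members, had 0 higher of 2 in lymphoid-low ones.

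Other groups had few genes past 2-fold between the libraries. The counts higher and lower in TTP-KO members were 1 and 1 of 31 lysosomal genes, 1 and 0 of 21 Fc receptor genes, 1 and 0 of 25 growth factor and cytokine receptors, 1 and 1 of 36 transcription factors, 0 and 1 of 17 pattern recognition genes, 1 and 1 of 20 NF-κB feedback genes and 1 and 1 of 19 immediate-early genes. Efferocytosis genes held 3 and 0 of 16 over all members (Mertk, Lrp1 and Cd300lf, which were under the count limit in lymphoid-low members) and 0 and 3 of 10 in lymphoid-low ones (Mrc1, Stab1 and Havcr2, which also lay below 0 over all members). Alternative activation genes held 3 higher and 5 lower of 13, and 2 and 5 of 9 in lymphoid-low members. That list includes Retnla, Fn1 and Ear2. The WT member with 23488 UMIs, which is lymphoid-low, held 1866 of 1867, 128 of 128 and 45 of 49 of their WT UMIs.

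**Figure D5:**
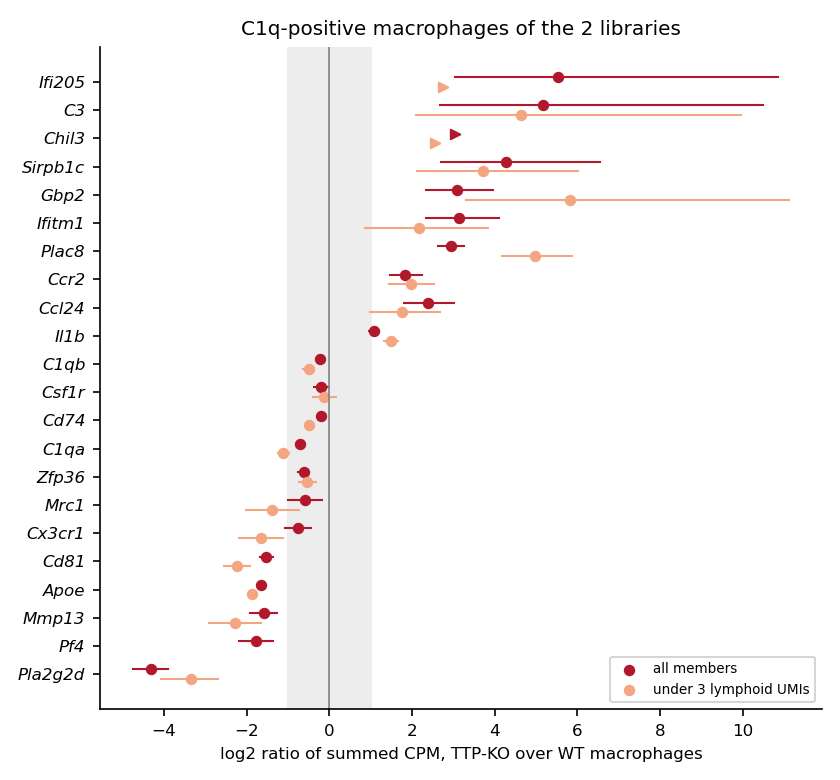
Log2 ratio of summed CPM, TTP-KO over WT members (x axis), with 95% counting intervals, for 22 genes (y axis) over all members (dark) and lymphoid-low members (light), where triangles are lower bounds against 0 UMIs and the range under 2-fold is shaded. Ccr2, Plac8, Il1b and Gbp2 lie above 0 and Apoe, Cd81 and Mmp13 below 0 in both sets of members.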

How the data were processed

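Innate lymphoid cells sorted from small intestinal lamina propria of Zfp36-/- and wild-type mice were sequenced as 1 library per genotype. The deposited values are raw UMI counts per gene and barcode (31053 genes), made by the authors with Cell Ranger on mm10 per the submitters' processing notes, with software version 3.1.0 per the file headers. How reads of near-identical genes (Lyz1 and Lyz2, Ifi204 and Ifi205, Ly6 and Gbp genes) were counted is not given in the sources used here. The TTP-KO and WT libraries held 27733804 and 24721524 UMIs in 3522 and 3593 barcodes, of which 3339 and 3397 were kept.

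Counts were summed over members and over dendritic cells (Python 3.11.15, numpy 2.4.6, scipy 1.17.1). Ratios of CPM have 95% intervals from an exact binomial split of the UMIs, shares have exact Clopper-Pearson intervals, and a count of 0 was set to 3 UMIs for a bound. Genes needed 50 UMIs over both groups, and 2-fold was the limit for a call. No test was made, since each genotype has 1 library. Cells were thinned to 2000 UMIs by a random draw for variance over mean, and shares of cells after thinning are expected values from the hypergeometric distribution. Scrublet (scanpy 1.11.5) marked under 0.5% of TTP-KO cells, 37 of 3397 kept WT cells and 0 members of either library. Its calls were not checked on known doublets and were not relied on. No barcode was removed as a doublet, and lymphoid UMIs were reported in its place. The ratio step was tested on simulated data.

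The members and the 25 gene lists and 12 marker lists were chosen with earlier results of these data known. Named genes were the rule genes and markers, the 15 highest and 10 lowest over dendritic cells and the 10 highest and 10 lowest between libraries by the interval end nearest 0, the 10 most variable, and list members. The alternatives were other C1q, mitochondrial and UMI limits, lymphoid-low members, members without both Xist and Y-linked UMIs, cells weighted equally, and centring on the median. Some genes are not reported here.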

Additional observations from a re-analysis of the deposited data

Results flagged for a closer look

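Lyz2, which encodes lysozyme, was on opposite sides of equality in the 2 libraries when macrophages were set against Plet1-positive dendritic cells. Its log2 ratio was 1.27 in the TTP-KO library, at 4297 against 1783 CPM, and -0.72 in the WT library, at 4815 against 7917 CPM. Among 92 named genes it was the only one with both counting intervals past 0 on opposite sides. Those of the 92 under the count limit in either library, such as Slamf1, could not be compared. The WT dendritic cells numbered 21. The other 17 macrophage markers summed to 1075.5 CPM in them and 574.9 CPM in the TTP-KO dendritic cells. With lymphoid-low cells on both sides, the WT log2 ratio of Lyz2 was 0.85, on the same side as in the TTP-KO library. Reads of Lyz1 and Lyz2 may have been split by the counting. The difference between the libraries was not tested.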

How the results depend on the processing

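Among the genes whose ratios were recomputed under each alternative, none past 2-fold changed direction, but 18 values of genes under 2-fold did. Innate lymphoid markers, 13 higher of 14 over TTP-KO dendritic cells (median log2 ratio 3.46), had 2 genes left in lymphoid-low cells, 1 of them lower (median -1.69). In lymphoid-low cells Plac8 over dendritic cells was 0.19 on the log2 scale (TTP-KO), and in the WT library Lyz2 was 0.85, Il1b 1.27, Cd74 0.45, H2-Aa 0.42 and Zfp36l2 -0.07. Of the shares and counts, 84 alternative values stayed near the reported ones and 25 moved, and of gene ratios 1715 stayed and 321 moved. The WT share was 2.21% with a C1q minimum of 5 UMIs and 1.24% with 20, and the TTP-KO share 7.46% with at most 5% mitochondrial UMIs. Among cells with under 3 lymphoid UMIs the shares were 8.52% (TTP-KO) and 8.57% (WT). There, 619 genes were higher and 850 lower in TTP-KO macrophages than in dendritic cells, 162 were higher in the WT library, and 185 were higher and 83 lower between libraries, with fewer cells and genes. With at least 20 UMIs per gene the counts were 1114 higher and 535 lower in the WT library and 935 and 372 between libraries. With at least 200 they were 491 and 270 (TTP-KO), 80 and 56 (WT), and 91 and 47 between libraries, since fewer genes were tested. Centring on the median gave 259 lower between libraries. Without barcodes holding Xist and Y-linked UMIs, added after seeing the data, the TTP-KO share was 3.01% and 321 genes were higher between libraries. Genes with a variance over mean of 3 or more numbered 11 at 1000 UMIs per cell and 84 at 4000. No paired analysis was possible because each genotype has 1 library, and no library could be left out. WT members, at a median of 6635.5 UMIs, limit what low genes can show. Shares of cells after thinning were averaged over all draws, a choice added after seeing the data, since 1 draw gave Ccr2 in 18.5% of WT members.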
